A study of Mus musculus with 6 samples.

Results

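The replication-dependent histone genes were followed through the chromatin accessibility of mouse small intestinal crypts. Accessibility was read by ATAC-seq, which sequences the DNA that a transposase can reach, as a log2 read value for each of 123510 peaks in each library. A peak was a member when its listed gene name began with Hist1h, Hist2h, Hist3h or Hist4h, and 42 peaks carrying 32 gene names met this rule. The 34 peaks of a chromosome 13 window that carry no gene name are described after them, because the window from base 21700000 to base 23700000 holds most of the Hist1 cluster. All positions are on GRCm38.

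The libraries came from male C57BL/6 mice, 3 WT and 3 Smarcad1-KO, whose age the labels do not give. Smarcad1 is an ATP-dependent chromatin remodeler, and in the KO its exons flanked by loxP sites were removed by Cre made from the Villin promoter, which acts in the intestinal epithelium. The KO line descends from a single targeted embryonic stem cell clone, and whether the WT mice carried loxP sites or Cre is not stated in the sources used here. Each library was made from nuclei of whole crypts, so cells other than epithelium could contribute. Of 10 crypt epithelial genes, 7 had a peak within 1 kb of a start, among them Lgr5, Olfm4 and Cdx2, and Ascl2, Epcam and Vil1 had none. Of 6 genes of leukocytes, fibroblasts, endothelium and smooth muscle, only Col1a1 had such a peak.

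Histones wrap DNA into nucleosomes, and the genes for the core histones H2A, H2B, H3 and H4 and for the linker histone H1 are switched on together in S phase, when new DNA must be packaged. Most of these genes are short, lack introns and end in a stem-loop instead of a poly(A) tail. They sit in clusters, of which Hist1 is the largest, and many H2A and H2B genes lie back to back and share a promoter. Crypts hold the dividing stem and transit amplifying cells of the gut, the cells in which these genes are needed most.

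The promoters printed here show the letters that set the histone types apart and a pair of genes that cannot be told apart. Each is the 150 bases before the RefSeq start, 5′ to 3′ on the gene's strand of GRCm38.p6. Capitals mark 4 motifs searched on both strands, which are the octamer ATTTGCAT, bound by the Oct-1 factor, the CCAAT box (CCAAT), the TATA box (TATAAA) and the H1 box (AAACACAA). None of these motifs holds another, although copies can overlap. The first 5 belong to the gene start under the strongest peak, in WT, of each histone type among peaks that cover the start of the gene they are named for.
Hist1h1c, chr13:23738657-23738806, plus strand: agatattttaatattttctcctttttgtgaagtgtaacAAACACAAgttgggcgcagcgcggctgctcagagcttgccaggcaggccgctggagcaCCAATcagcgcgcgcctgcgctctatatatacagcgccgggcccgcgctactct
Hist1h2ac, chr13:23683960-23684109, minus strand: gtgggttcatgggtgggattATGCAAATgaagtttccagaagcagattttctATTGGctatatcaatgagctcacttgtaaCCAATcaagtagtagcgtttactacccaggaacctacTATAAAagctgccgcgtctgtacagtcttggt
Hist1h2bm, chr13:21721894-21722043, plus strand: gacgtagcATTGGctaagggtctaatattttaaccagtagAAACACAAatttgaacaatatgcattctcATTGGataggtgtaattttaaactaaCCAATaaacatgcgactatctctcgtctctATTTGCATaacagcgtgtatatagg
Hist1h3e, chr13:23562386-23562535, minus strand: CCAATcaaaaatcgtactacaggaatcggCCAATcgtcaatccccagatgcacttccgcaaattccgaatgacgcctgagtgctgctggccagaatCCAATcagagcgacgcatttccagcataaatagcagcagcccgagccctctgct
Hist1h4d, chr13:23581418-23581567, plus strand: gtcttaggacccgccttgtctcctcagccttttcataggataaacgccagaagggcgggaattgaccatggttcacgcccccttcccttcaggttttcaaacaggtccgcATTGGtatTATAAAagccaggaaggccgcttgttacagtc
The other two are H2B genes of the Hist1 cluster that lie on opposite strands, and neither has a peak over its start.
Hist1h2bq, chr13:21810200-21810349, minus strand: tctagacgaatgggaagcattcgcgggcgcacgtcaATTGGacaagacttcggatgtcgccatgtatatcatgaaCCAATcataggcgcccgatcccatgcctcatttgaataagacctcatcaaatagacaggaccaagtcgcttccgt
Hist1h2br, chr13:21833593-21833742, plus strand: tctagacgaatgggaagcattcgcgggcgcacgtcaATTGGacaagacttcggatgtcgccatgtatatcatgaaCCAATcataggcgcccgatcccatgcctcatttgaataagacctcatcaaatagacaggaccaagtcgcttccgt

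The motifs differed between histone types. A RefSeq promoter of 300 bases, from 250 before to 50 after the start, was matched for 62 of the 67 protein-coding genes of these 4 families in the GENCODE annotation. The octamer was in 7 of 18 H2A promoters and 6 of 16 H2B promoters, and in 0 of 6 H1, 0 of 10 H3 and 0 of 12 H4 promoters, against 1.75% of all 27025 RefSeq promoters. The CCAAT box was in all H1, H2A, H2B and H3 promoters matched, in 3 of 12 H4 promoters and in 37.9% of all promoters. The H1 box was in 4 of 6 H1 promoters, in 1 of 18 H2A, 1 of 16 H2B, 0 of 10 H3 and 0 of 12 H4 promoters, and in 1.95% of all. The TATA box was in 35 of the 62, against 14.2% of all. The octamer was in 9 of 41 promoters whose start lay under a peak and in 4 of 21 whose start did not, and the CCAAT box in 36 of 41 and 17 of 21. H2A and H2B genes that lie back to back can have overlapping promoter windows, as Hist1h2ah and Hist1h2bk do. The same octamer can therefore count under both types, and these promoters are not independent. A match to these letters is a description and not a bound site.

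The members fell into 6 places. A first Hist1 group on chr13:21709801-22044600 held 13 peaks, and a second, on chr13:23534551-23931450, held 22. A lone Hist1 peak lay near the pseudogene Hist1h2al at chr13:51205201-51205800. Hist2 held 3 peaks on chr3:96236851-96278700, Hist4 held 2 at Hist4h4 on chr6:136797901-136805400, and Hist3 held 1 at Hist3h2ba on chr11:58947901-58949100. By type, 3 peaks carried the name of an H1 gene, 7 of an H2A gene, 15 of an H2B gene, 6 of an H3 gene and 11 of an H4 gene. A name stands for the gene the authors listed and not for every gene under the peak: 13 of the peaks covered the start of a single histone gene, 11 covered 2 or 3 starts and 18 covered none. The peak named Hist1h4a, for example, also covered the starts of Hist1h3a and Hist1h1a. Values of a peak over several starts belong to the group of genes and were not divided among them.

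Histone gene peaks were strong in WT crypts compared with all peaks, but not compared with peaks over protein-coding gene starts. Strength is given as log2 normalized reads per kb of peak, and the percentile is the share of all 123510 peaks with a lower WT mean on that scale. The median member stood at percentile 85.9, and 29 of the 42 stood above percentile 75. The median over the members was 7.08, 6.76 and 7.51 in WT1, WT2 and WT3 and 7.27, 6.86 and 7.50 in KO1, KO2 and KO3, and that over all peaks was 6.52, 6.29, 6.58, 6.45, 6.34 and 6.58 in the same order. The histone median lay above that of all peaks in each of the 6 libraries. Its difference from the median of the 10593 peaks over a protein-coding gene start was -0.32 ± 0.07 in WT (SD over 3 libraries). In KO that difference was -0.24 ± 0.13, and the histone median was the higher in 0 of 6 libraries.

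**Figure D1:**
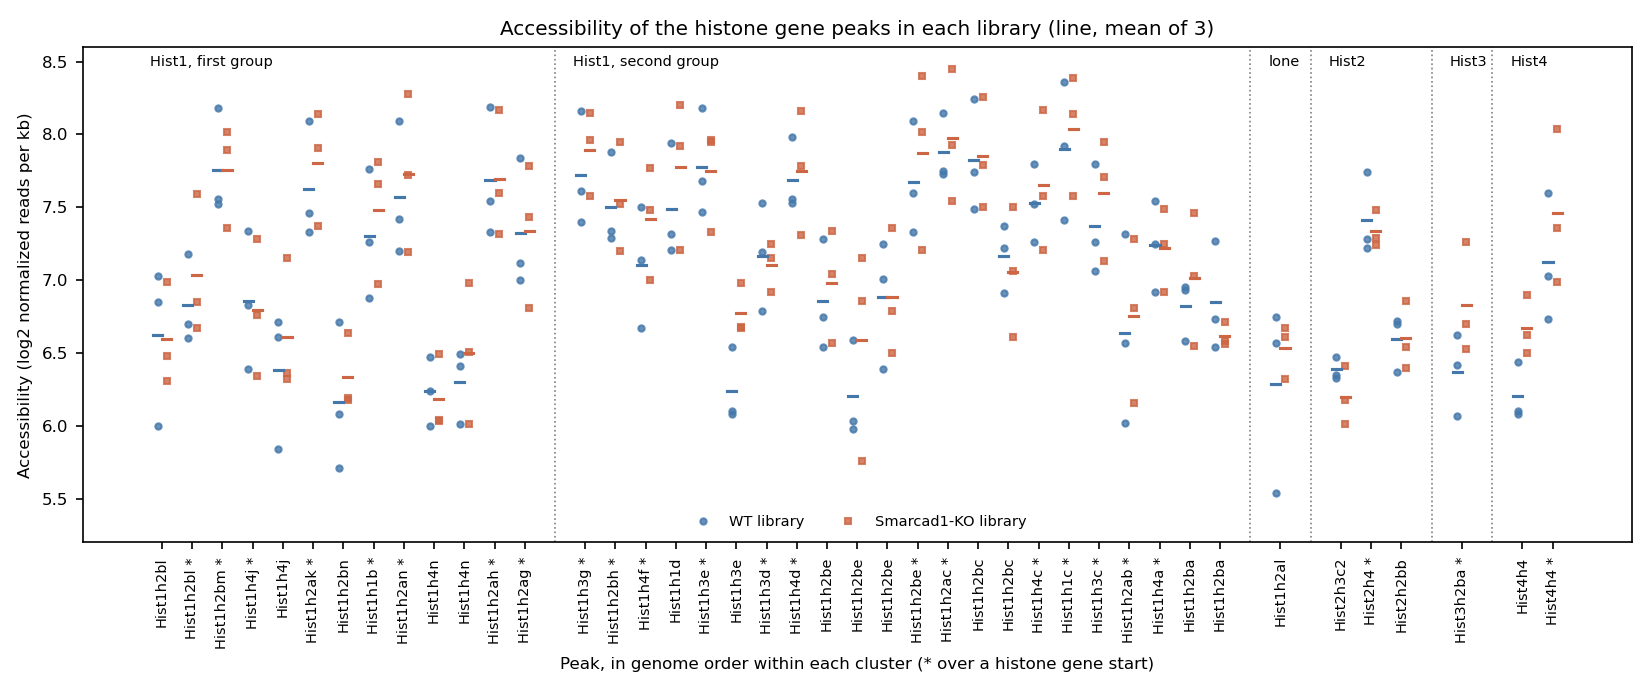
Accessibility of the 42 histone gene peaks in log2 normalized reads per kb (vertical axis), in genome order within each cluster (horizontal axis). Circles are the 3 WT libraries, squares the 3 Smarcad1-KO libraries, short lines their means, and a star marks a peak over a histone gene start. The WT mean was above 7 in 20 of 24 peaks with a star and in 3 of 18 without, and WT and KO libraries overlap in 40 of the 42 peaks.

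Peaks over a histone gene start were the strong ones. In WT the median of the 24 peaks over a start exceeded that of the 18 others by 0.85 ± 0.24 log2 units per kb (SD over 3 libraries), and the difference had the same sign in 6 of 6 libraries. Peaks over 2 or 3 starts exceeded peaks over 1 start by 0.04 ± 0.10, which is smaller than the spread between libraries. Against the 10593 peaks of the whole table that cover a protein-coding gene start, the 24 differed by 0.00 ± 0.19 in WT, which is within the spread between libraries, and by 0.13 ± 0.06 in KO. The 24 were higher in 5 of 6 libraries.

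The 5 strongest members each came from the Hist1 cluster. Hist1h1c, which codes for the linker histone H1.2, led the list with 7.92, 7.41 and 8.36 log2 reads per kb in WT1, WT2 and WT3 and 8.14, 7.58 and 8.39 in KO1, KO2 and KO3, at percentile 96.0. The peak shared by the back-to-back genes Hist1h2ac and Hist1h2bc had 7.73, 7.75 and 8.15 in WT and 7.93, 7.54 and 8.45 in KO. A peak inside the annotated intron of Hist1h2bc, at chr13:23686951-23688600, was nearly as strong although it covers no histone start, with 7.49, 7.74 and 8.24 in WT and 7.79, 7.50 and 8.26 in KO. In all 3 the WT and KO libraries overlapped. Hist1h3e had WT values of 7.47, 7.68 and 8.18, and Hist1h2bm had 7.56, 7.52 and 8.18. Among H4 genes Hist1h4d was strongest, with 7.56, 7.53 and 7.98 in WT. The weakest member was a peak 4948 bp upstream of Hist1h2bn, at 5.71, 6.08 and 6.71 in WT and percentile 17.4. The weakest members of the other types were the Hist1h2al peak among H2A (percentile 32.9), a peak 2782 bp downstream of Hist1h3e among H3 (26.5), a peak 3053 bp upstream of Hist4h4 among H4 (22.1), and Hist1h1b among H1, which still stood at percentile 88.7.

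By median, peaks with Hist1 names were stronger than the few with Hist2 names. Hist1 exceeded Hist2 by 0.79, 0.20 and 0.81 log2 units per kb in WT1, WT2 and WT3, a mean of 0.60 ± 0.35 (SD, n = 3), and by 0.71 ± 0.32 in KO, so that Hist1 was higher in 6 of 6 libraries. Only 3 peaks carry Hist2 names, and 1 of them, Hist2h4, covers a start. The other two were at percentiles 45.4 for Hist2h3c2 and 66.6 for Hist2h2bb, and Hist2h4 at 90.5, so that the Hist2 median is that of a peak over no start. Peaks over histone starts that carry other names, described below, were left out. Their WT means per kb were 7.18 (Bola1), 7.27 (Gm20628) and 6.45 (Gm20633) over Hist2 starts. Over Hist1 starts they were 7.56 (Gm11335) and 7.50 (4930558J22Rik). The difference therefore holds for listed names, and its size with these peaks included was not tested. Within Hist1 the first group was lower than the second by a mean of -0.43 ± 0.10 in WT, with the same sign in 6 of 6 libraries. The first group holds no peak with an H3 name and the second holds 5.

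By type, the median of H2A peaks exceeded that of H2B peaks by 0.67 ± 0.15 in WT and by 0.66 ± 0.12 in KO. H1 peaks exceeded H2B peaks by 0.59 ± 0.11 and H4 peaks by 0.42 ± 0.13, and H3 peaks exceeded H4 peaks by 0.21 ± 0.04, all in WT and each with the same sign in 6 of 6 libraries. These differences are between named peaks and not between genes, since an H2A name and an H2B name can stand for the same shared promoter: each of the 5 peaks over an H2A and an H2B start with an H2A name would count as H2B under the other name. The types also differ in how many of their peaks cover a start.

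Of the 67 protein-coding histone genes, 46 had their start under a peak. A member covered the start of 37, and a peak with another gene's name covered that of 9. Those peaks were named Bola1, over Hist2h2ab, Hist2h2ac and Hist2h2be, Gm20628, over Hist2h3b and Hist2h2bb, and Gm20633, Trim17, Gm11335 and 4930558J22Rik, each over a single start. The 6 peaks had a median of percentile 89.5. Their KO means were higher than their WT means in 6 of 6, by 0.06 to 0.23, against 46.9% of all peaks. WT and KO libraries overlapped at each of them, and each change was smaller than its limma SE (0.26 to 0.34). Of these 9 genes, 6 are of Hist2, so the naming rule missed that cluster in part. The start used is the outermost of the GENCODE gene model, which for Hist1h1d lies upstream of its strong peak. With RefSeq starts, available for 62 genes, 42 lay under a peak in place of 41, and Hist1h1d was the added gene.

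Of the 21 genes without a peak over the start, 7 were nearly identical to other sequence in the genome. For each gene with 250 bases on either side, the share of 50-mers, sequences as long as a read, that occur once in the genome was counted. Of 8 genes with less than 15% of such unique 50-mers, 1 had its start under a peak, of 24 genes with 15% to 75%, 16 did, and of 35 genes with more, 29 did. Hist1h2bq, Hist1h2br, Hist1h2ao and Hist1h2ap had 0% unique 50-mers, and Hist1h4m, Hist1h4n and Hist2h2aa2 had 10.8%, 11.2% and 10.5%. The promoters of Hist1h2bq and Hist1h2br, printed above, were identical in 300 of 300 bases. A read that matches several places equally well gets a low mapping quality, and the authors applied a limit on it. The lack of a peak at these 7 genes was therefore not read as low accessibility. The libraries were sequenced in pairs, and the count takes each 50-mer alone, without the other read of its pair. The part of read placement in the missing peaks was not tested, at these 7 genes or at the others. Exceptions exist in both directions: Hist2h2aa1, with 13.5% unique 50-mers, had a peak, and Hist1h1t, the testis linker histone gene, had none with 100%. The testis genes Hist1h2ba and Hist1h2aa, with 84.4% and 99.0%, had none over their starts either. A run of 4 genes in 4.44 kb, Hist1h2ae, Hist1h2bg, Hist1h2bf and Hist1h2ad, had no peak with 65.7% to 75.5%, between Hist1h3e and Hist1h3d, whose starts were covered.

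**Figure D2:**
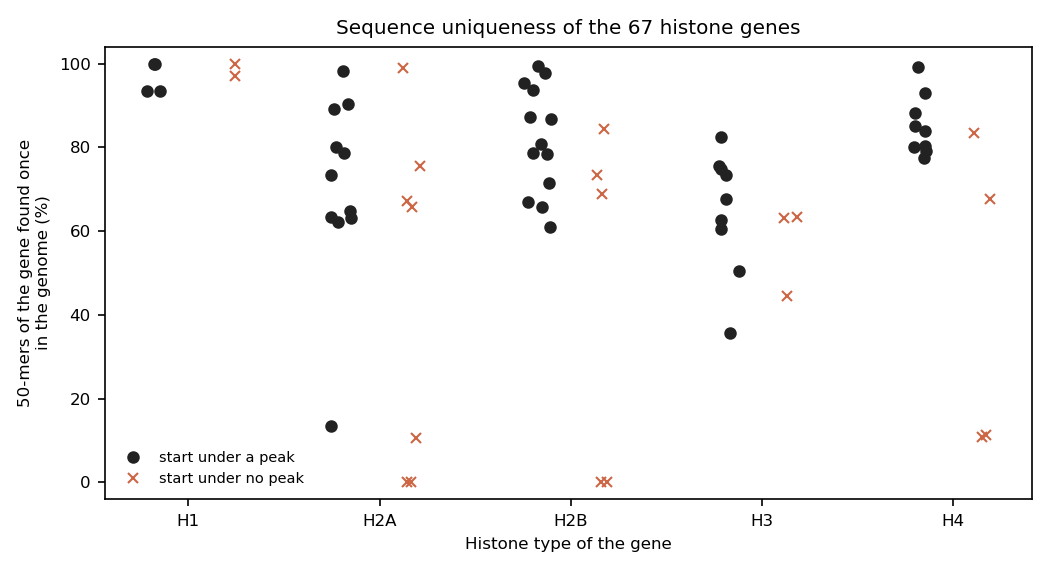
Share of 50-mers found once in the genome (vertical axis, %) for each of the 67 protein-coding histone genes with 250 bases on either side, by histone type (horizontal axis). Circles are genes with their start under a peak and crosses genes without. Of the 8 genes below 15%, 7 are crosses, 4 of them at 0%.

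The members themselves were less unique than other peaks. In them a median of 91.0% of 50-mers were unique, and 14 of 42 had less than 80%, against 39 of 1236 peaks (3.16%) taken at every 100th row of the table. Among peaks over a start this was 12 of 24 and among the others 2 of 18, so reads over histone starts were more often open to loss or to exchange between near-identical genes. Whether this changed the levels was not tested.

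Smarcad1 deletion changed no histone gene peak beyond the test's threshold. In limma, fitted to all 123510 peaks with Benjamini-Hochberg adjustment, 0 of 42 members had an adjusted p below 0.05, with 0.0% of all peaks called, and 0 of 42 had an unadjusted p below 0.05, against 2.28% of all peaks. Voom on the recovered reads also called 0 of 42, with 1 at an unadjusted p below 0.05. Over all 123510 peaks voom called 3, with 2947 at an unadjusted p below 0.05. The KO mean was higher in 31 of 42 members, against 46.9% of all peaks, and the median change was 0.12 on the log2 scale, against -0.02 over all peaks and 0.00 over the peaks at protein-coding gene starts. The single changes ranged from -0.23 to 0.54.

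The number of members higher in KO changed with the libraries compared. Without WT2 the KO mean was higher in 20 of 42 members and the median change was -0.01, and without KO3 it was higher in 15 and the median change was -0.06. Without WT3 it was higher in 37 with a median of 0.27, and without KO2 in 39 with a median of 0.32. WT2 was the lowest WT library in 29 members and KO2 the lowest KO library in 35, and WT3 and KO3 were the highest in 37 and 34. The same libraries were extreme in 63.4%, 52.6%, 54.2% and 56.0% of all peaks. WT3 is the deepest library, with 16301164 reads in peaks, and KO3 the shallowest, with 4339306, and the others held 6180717 to 7721797. The part that depth had in these changes was not tested.

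**Figure D3:**
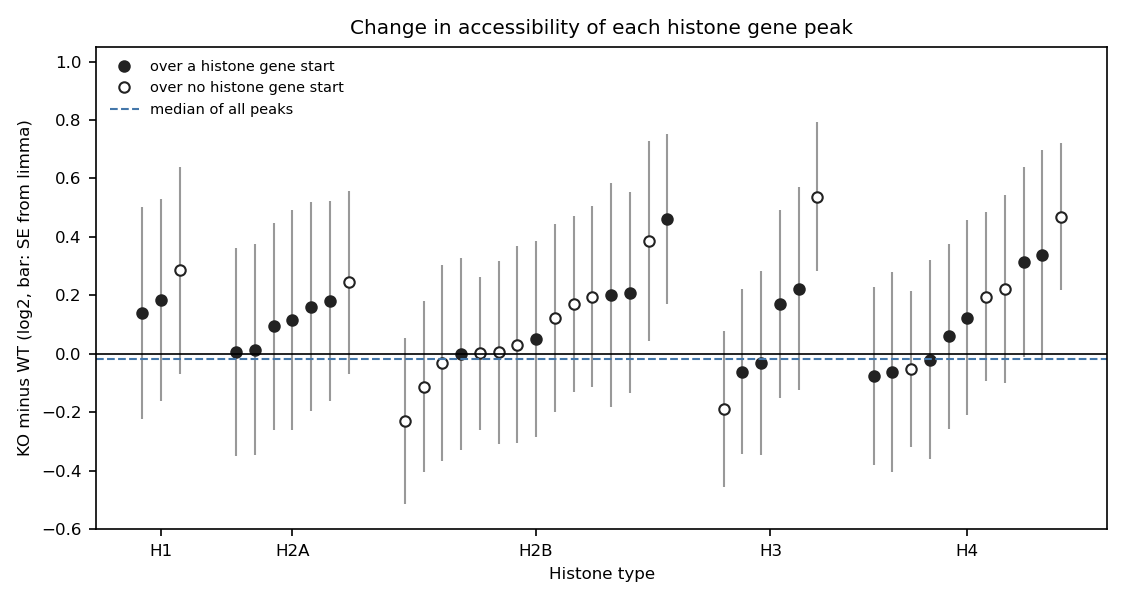
KO minus WT log2 change of each of the 42 histone gene peaks (vertical axis; bars, SE from limma) by histone type (horizontal axis), ordered by size within a type. Filled circles cover a histone gene start, open circles do not, and the dashed line is the median of all peaks at -0.02. The changes run from -0.23 to 0.54 and those of the 5 types overlap.

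The median change was 0.18 for H1, 0.12 for H2A, 0.05 for H2B, 0.07 for H3 and 0.12 for H4. The KO mean was higher in 3 of 3 H1, 7 of 7 H2A, 11 of 15 H2B, 3 of 6 H3 and 7 of 11 H4 peaks. For Hist1 the median was 0.12 with 27 of 36 higher, and for Hist2 it was -0.08 with 1 of 3 higher. The single Hist3 peak changed by 0.46, and the 2 Hist4 peaks had a median of 0.40 with 2 of 2 higher. Differences between types and clusters in the KO effect were not tested.

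In 2 members all KO libraries lay above all WT libraries, which was the case in 2.7% of all peaks. A peak downstream of Hist1h3e, at chr13:23565151-23565750, had 6.10, 6.08 and 6.54 log2 reads per kb in WT and 6.67, 6.68 and 6.98 in KO. It changed by 0.54 (SE 0.26), with an unadjusted p of 0.0531 and an adjusted p of 1.00 in limma, the smallest unadjusted p among the members. A peak upstream of Hist4h4, at chr6:136797901-136798500, had 6.10, 6.08 and 6.44 in WT and 6.62, 6.50 and 6.90 in KO, a change of 0.47 (SE 0.25). Neither covers a histone gene start, and both were among the weaker members. In KO3 they held 19 and 18 reads. No member had all KO libraries below all WT libraries, against 4.1% of all peaks.

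The next members by p overlapped between groups. Hist3h2ba had 6.07, 6.62 and 6.42 in WT and 6.53, 6.70 and 7.26 in KO, a change of 0.46 (SE 0.29). A peak in the annotated intron of Hist1h2be, at chr13:23592901-23593800, had a change of 0.39, and Hist1h4f of 0.31. Of the members with a lower KO mean, the one with the smallest p was a peak 2318 bp upstream of the testis gene Hist1h2ba, at chr13:23930101-23931450, with 6.54, 6.73 and 7.27 in WT and 6.71, 6.58 and 6.56 in KO, a change of -0.23. Hist2h3c2 had -0.19, a peak upstream of Hist1h2bc -0.11, Hist2h4 -0.08 and Hist1h3d -0.06. None of these had an unadjusted p below 0.05. The strongest members changed little: Hist1h1c by 0.14 (SE 0.36), Hist1h2ac by 0.09 (SE 0.35) and Hist1h2bm by 0.00 (SE 0.33). Each of these 3 changes was smaller than its SE. The SE depended on the scaling between libraries and was 0.15 for Hist1h1c and 0.14 for Hist1h2ac under quantile normalization, where the changes were 0.13 and 0.08 and were not called.

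Of the 103 peaks that start in the window, 29 carried histone names, 34 none and 40 other names, 17 of them of Vmn1r vomeronasal receptor genes. The unnamed peaks stood at a median WT percentile of 49.6, and 7 of the 34 (20.6%) covered a tRNA gene, against 0.0947% of all peaks. Between KO and WT, limma called 0 of 34, with 0.0% of all peaks called. In that fit 1 had an unadjusted p below 0.05, with a higher KO mean, against 0.909% of all peaks in that direction. The KO mean was higher in 12 and lower in 22 (35.3% higher, against 46.9% of all peaks), with a median change of -0.09. With a library left out, the number higher ranged from 8 without WT2 to 17 without WT3.

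The exception was the peak at chr13:22167751-22168950. Its log2 values per peak were 6.26, 6.24 and 6.25 in WT1, WT2 and WT3 and 8.93, 7.75 and 9.61 in KO1, KO2 and KO3. All KO libraries were above all WT libraries, and the lowest KO value exceeded the highest WT value by 1.49. The reads behind these values were 39, 41 and 76 in WT and 223, 150 and 196 in KO. The change was 2.51 on the log2 scale (SE 0.39), a 5.71-fold higher level in KO. In the limma fit across all peaks the unadjusted p was 1.26e-05 and the adjusted p 0.311, so the peak was not called. It was called under quantile normalization (adjusted p = 0.00481), under scaling to the total over peaks (0.0177), with voom on the recovered reads (0.0118) and without KO2 (2.63e-05), while the change stayed between 2.09 and 3.02 under every alternative. Of all 123510 peaks, 3 were called under quantile normalization, 3 under scaling to the total, 3 with voom and 30 without KO2. Over the alternatives that kept the same model the adjusted p of the peak at base 22167751 ranged from 2.63e-05 to 1.00. Of the members and the unnamed peaks of the window, it alone is also listed in the smaller table deposited with the data. That list comes from the authors' own test of the same libraries, so it is no separate evidence. The peak was also picked with earlier results of these data known.

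In WT this peak was weak, at percentile 3.47 per kb, and 1 other unnamed peak of the window was weaker. It lies 123 kb after the last histone peak of the first Hist1 group, 1366 kb before the second and 117 kb from the nearest tRNA gene, in sequence annotated as intergenic. Its bases were 45.1% G or C, and 16.2% of its 50-mers occurred more than once in the genome, up to 20 times. The 300 bases at its centre, printed from the plus strand of GRCm38.p6 with each CG dinucleotide in capitals, held 8 CGs and no base in a repeated 50-mer.
Centre, chr13:22168201-22168500: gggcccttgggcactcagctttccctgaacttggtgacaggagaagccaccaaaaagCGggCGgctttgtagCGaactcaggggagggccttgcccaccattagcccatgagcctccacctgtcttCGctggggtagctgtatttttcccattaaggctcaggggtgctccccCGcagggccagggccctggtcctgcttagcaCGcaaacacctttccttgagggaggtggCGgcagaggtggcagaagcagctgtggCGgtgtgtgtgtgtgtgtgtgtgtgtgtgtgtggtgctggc

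**Figure D4:**
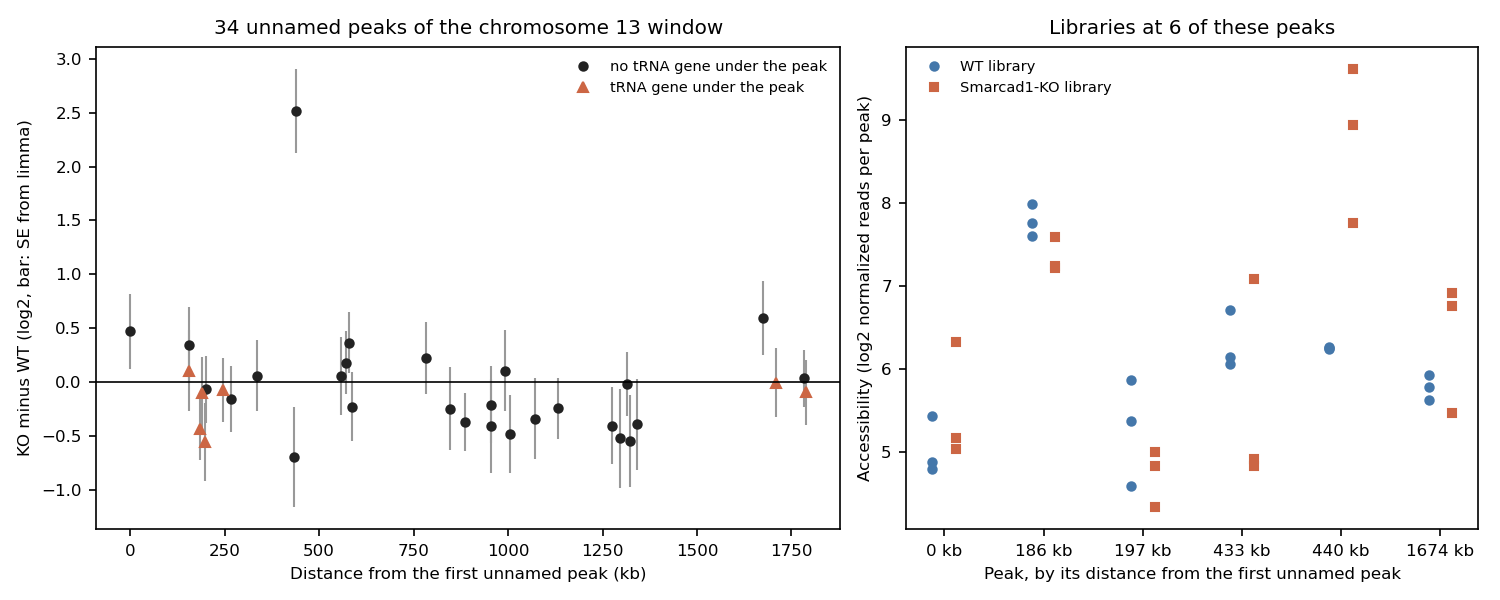
Left, KO minus WT log2 change (vertical axis; bars, SE from limma) of the 34 unnamed peaks against distance from the first (horizontal axis, kb), with triangles for peaks over a tRNA gene. Right, log2 normalized reads per peak in each library (circles WT, squares Smarcad1-KO) at 6 of these peaks. The peak with the change of 2.51 stands alone, its 3 WT libraries within 6.24 to 6.26 and its KO libraries from 7.75 to 9.61.

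The unnamed peak before it, 6.15 kb away at chr13:22160851-22161600, had 6.14, 6.05 and 6.70 in WT and 4.82, 4.91 and 7.08 in KO. KO1 and KO2 were below all WT libraries and KO3 above them, and the change was -0.69. At chr13:23401501-23402400, values of 5.62, 5.92 and 5.78 in WT stood beside 6.91, 6.75 and 5.46 in KO, a change of 0.60 with KO3 on the other side. A peak over a tRNA gene at chr13:21913651-21915150 had 7.60, 7.75 and 7.98 in WT and 7.23, 7.21 and 7.58 in KO, a change of -0.44 (SE 0.28), with every KO library below every WT library. The peaks at chr13:21924751-21925200 and chr13:21727951-21728400 changed by -0.55 and 0.47 with overlapping groups. Of the 7 unnamed peaks over a tRNA gene the KO mean was lower in 6, with a median change of -0.09, and of the 26 others besides the exception it was lower in 16, with a median of -0.18. Over all peaks the KO mean was higher in 46.9%, and these counts were not tested.

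Genes that make, process, carry or replace these histones were read as a wider list of 35 genes, of which 30 gave their name to 59 peaks. In limma, 0 of the 59 had an adjusted p below 0.05, with 0.0% of all peaks called. The unadjusted p was below 0.05 in 0 of the 59, against 2.28% of all peaks. Voom called 0 of the 59, with 1 at an unadjusted p below 0.05. Over all 123510 peaks voom called 3, with 2947 at an unadjusted p below 0.05. The KO mean was higher in 26 and lower in 33 (44.1% higher, against 46.9% of all peaks), with a median change of -0.03. It was higher in 46 of 59 without WT3 and also without KO2, in 16 without WT2 and in 15 without KO3. No peak carried the name of Npat, the coactivator that gathers at the histone loci, or of the chaperone genes Asf1a, Asf1b and Supt16 or the linker histone gene H1fx. Peaks of this list were matched by listed name only. Whether a peak with another name covers the start of these genes was not checked.

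Among factors of histone gene expression and RNA processing, 13 of 14 genes had 24 peaks, 13 of them higher in KO and 11 lower. The strongest was that of Casp8ap2, which codes for the FLASH protein of histone RNA 3′ end processing, at percentile 99.8 with a change of -0.04. A weak peak of Hinfp, the activator of H4 genes, had 6.10, 6.14 and 6.23 log2 reads per kb in WT and 6.82, 6.61 and 6.43 in KO, a change of 0.46 (SE 0.25). A peak of Cstf2, a subunit of the cleavage machinery, had a change of -0.42 with overlapping groups. Among chaperones, 7 of 10 genes had 16 peaks, of which 8 were higher and 8 lower. Daxx, a partner in H3.3 deposition, had the strongest, at percentile 99.8 with a change of -0.03. A peak of Atrx, which works with Daxx, had 0.48, and a peak of Hira, the other H3.3 chaperone, had -0.42 (SE 0.25), with 6.52, 6.85 and 6.52 in WT and 6.29, 6.33 and 6.00 in KO.

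Among replication-independent histones, which are also made outside S phase, 10 of 11 genes had 19 peaks, 5 higher in KO and 14 lower, with a median change of -0.09. The strongest was at H2afv, an H2A.Z gene, at percentile 99.9 with a change of -0.07. A peak of H2afy, which codes for macroH2A1, had 7.03, 6.23 and 7.20 in WT and 7.84, 6.98 and 7.66 in KO, a change of 0.68 (SE 0.34), and WT overlapped KO2 only. A peak of H3f3b, a gene for H3.3, had 6.52, 7.08 and 6.80 in WT and 6.52, 6.53 and 5.96 in KO, a change of -0.46. None of the changes named in these lists passed this limma test.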

How the data were processed

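ATAC-seq libraries of small intestinal crypt nuclei from 3 WT and 3 Smarcad1-KO mice were compared, with groups and replicate numbers from the sample titles. The labels do not say that the numbers mark litters or batches. The authors trimmed reads with Trim Galore (version 0.4.1), mapped them to GRCm38 with Bowtie2 (version 2.2.5), removed duplicates, applied a mapping quality limit and called 1 set of MACS peaks in SeqMonk. Which libraries entered that step is not given in the sources used here. The authors deposited log2 read counts per peak, scaled to the largest library, and a smaller table of 74 peaks past their edgeR threshold. Its adjusted p-value column, deposited by the authors for KO against WT, was not used.

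On the linear scale, 1 value in KO1 and 32 in KO3 stood at 0.90 of a read and were taken as peaks without a read. Of the other values 100% were whole multiples, within 0.05 of a read, of a constant per library, the value of 1 read, which gave the reads in peaks per library. The number of reads in a library bears on counting error only and not on the spread between mice.

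Because the values are log2, limma (version 3.58.1, R version 4.3.3; lmFit and eBayes with trend, two-sided) took the place of the edgeR test in the study's methods, on all 123510 peaks without covariates or a filter, with Benjamini-Hochberg adjustment over all peaks and a call at 0.05. The fit was tested on simulated data with planted changes larger than those of the members and without shifts shared by a library. That test cannot show whether small changes were missed here. Strength per kb is the log2 value minus log2 of the peak width in kb. Groups of peaks are neighbours less than 500 kb apart. Medians over peaks were taken per library and carry no p-value. Genes and starts came from GENCODE vM21, tRNA genes and promoters from RefSeq on GRCm38.p6. All 123510 peaks end within the chromosomes of that build, and 27 of the 31 peaks the authors marked as overlapping a histone gene overlap the same gene in GENCODE. Counts of 50-mers used both strands of the chromosomes.

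Members, gene lists and tests were chosen with earlier results of these data known. Named peaks were the strongest and weakest of each group and histone type, the 5 with the smallest p in each direction, the 3 such unnamed peaks in each direction with the peak starting at 22167751, any in the smaller table, and, in each wider gene list, the strongest and the smallest p in each direction.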

Additional observations from a re-analysis of the deposited data

How the results depend on the processing

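Alternatives were centring on the median, quantile normalization, scaling to the total over peaks, voom on recovered reads, a pseudocount of 5, a minimum mean of 50, the replicate number as a block and each library left out. No histone gene peak was called under any of them, under a threshold of 0.1, or with members taken as the 37 peaks over or within 1 kb of an annotated histone gene. The count of unnamed window peaks called was 1 under quantile normalization, scaling to the total and voom, and ranged from 0 to 1 with a library left out. Of all 123510 peaks, 3 were called under each of quantile normalization, scaling to the total and voom, and 0 to 30 with a library left out. The median histone change ranged from -0.06 to 0.32 with a library left out. Hist1 minus Hist2 in WT, by listed names, ranged from 0.50 to 0.80 with a library left out and was 0.76 per peak instead of per kb. Across the scalings the KO mean was higher in 28 to 32 of 42 members.

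With a library left out, the change turned in sign in 15 named peaks, none of them called. It ranged from -0.10 to 0.37 at Hist1h1c, -0.026 to 0.44 at Hist1h1b, -0.14 to 0.31 at Hist1h2ac, -0.13 to 0.48 at Hist1h2al, -0.13 to 0.21 at Hist1h2bm, -0.058 to 0.44 at Hist1h2bn, -0.25 to 0.12 at Hist1h3d, -0.18 to 0.18 at Hist1h3e, -0.14 to 0.28 at Hist1h4d and -0.17 to 0.086 at Hist2h4. At Hist1h2bc it ranged from -0.17 to 0.24 in the intron and from -0.33 to 0.11 upstream. The ranges were -0.35 to 0.29 at Casp8ap2, -0.29 to 0.18 at Daxx and -0.35 to 0.17 at H2afv. Hist1h2bm, at 0.00 in the main setting, was 0.0086 when centred on the median. The cause was not tested.

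The replicate block called 1 unnamed window peak (the one at base 22167751, adjusted p = 3.50e-50 in limma), 1 peak of the wider list (H2afy, adjusted p = 0.0186 in limma) and 272 of all 123510 peaks. Deviations of same-numbered libraries correlated at 0.036, 0.42 and 0.41 for the numbers 1, 2 and 3 over all peaks, and at 0.12, 0.49 and 0.46 over the histone gene peaks. Over all peaks 5 of 6 libraries, and over the histone gene peaks 6 of 6, correlated best with their own number in the other group, a hint from the data and not from the design. The labels give the numbers no meaning and the correlation over all peaks was near 0 for number 1, so the libraries were not treated as pairs. That fit drew the spread of each peak almost wholly from the other peaks (6879 prior degrees of freedom).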

Other observations

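tRNA genes are spread through the Hist1 window, where 79 of the 403 RefSeq tRNA genes lie. Of these 79, 26 were under a peak, against 160 of all 403. A tRNA gene lay under 1 of the 42 histone gene peaks (2.38%) and under 7 of the 34 unnamed peaks (20.6%), against 0.0947% of all peaks. These shares were not tested.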
